A study of Rattus norvegicus with 17 samples.

Results

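The 37 genes of the rat mitochondrial genome are described here across fetal testes of rats exposed to dipentyl phthalate. They were chosen as all genes that the deposited count files place on the chromosome MT, and they are 37 of the 30560 genes in those files. All lie on MT of the build mRatBN7.2, between position 1 and position 15415. Of these genes, 13 are named protein genes, 2 are long genes without a gene name and 22 are short genes of 60 to 75 bases without a gene name. The 17 libraries were made by RNA sequencing after polyA selection, from testes of Sprague Dawley fetuses. Their dams received dipentyl phthalate (DPeP), a phthalate ester used to soften plastics, or its vehicle corn oil by gavage on gestational days 17 to 21, at 2.5 mL/kg, and the testes were taken on day 21. The groups were corn oil (n = 3), DPeP at 1 mg/kg/d (n = 3), at 11 mg/kg/d (n = 3), at 100 mg/kg/d (n = 3) and at 300 mg/kg/d (n = 5). One library held the RNA of a single testis or of a pooled pair from 1 litter. The sources used here do not give whether every library had its own dam, so p-values measure the spread between these libraries.

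The mitochondrial genome is a small circular DNA inherited from the mother and present in many copies per cell. Both of its strands are read as long transcripts that are cut into messenger, ribosomal and transfer RNAs, and in mammals it holds 13 protein genes, 2 ribosomal RNA genes and 22 transfer RNA genes. The proteins are core subunits of the respiratory chain and of ATP synthase, while the other subunits and the whole machinery that copies, reads and translates this DNA come from the nucleus. In the testis, the mitochondria of Leydig cells also hold the enzyme that opens steroid synthesis from cholesterol.

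The protein genes comprise 7 subunits of complex I, the NADH dehydrogenase (Mt-nd1, Mt-nd2, Mt-nd3, Mt-nd4, Mt-nd4l, Mt-nd5 and Mt-nd6), 1 of complex III (Mt-cyb, cytochrome b), 3 of complex IV, the cytochrome c oxidase (Mt-co1, Mt-co2 and Mt-co3), and 2 of complex V, the ATP synthase (Mt-atp6 and Mt-atp8). They measure 204 to 1830 bases. The long unnamed genes are ENSRNOG00000030478, with 958 bases at MT:68-1025, and ENSRNOG00000043866, with 1571 bases at MT:1094-2664. The files list 28 genes on the plus strand and 9 on the minus strand, which are Mt-nd6 and 8 short genes. The library kit does not mark strand, so reads of an opposite-strand RNA over the same positions cannot be told apart. In addition, 13 of the 37 genes overlap another of them, such as Mt-atp8 and Mt-atp6 over 43 bases, Mt-nd5 and Mt-nd6 over 23 bases and Mt-nd4l and Mt-nd4 over 7 bases, so their counts are uncertain there. The files name no product for the 2 long and 22 short genes. Ribosomal and transfer RNAs are not what polyA selection is made to keep, so counts in such genes say little of their level in the cell. Copies of mitochondrial sequence in the nuclear genome can share reads with these genes.

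Libraries held 14282274 to 20323488 gene counts, and replicate pairs of a group differed beyond sampling noise in all 22 pairs (chi-square per degree of freedom 6.83 to 84.5). Sertoli, Leydig and germ cell markers were detected in every library: the 8 Sertoli markers summed to 2279 to 4979 CPM (counts per 1000000 gene counts, with scaled library sizes), the 8 Leydig markers to 1572 to 6994 CPM and the 8 germ cell markers to 247 to 652 CPM. Of cells around or beside the tubules, macrophage markers summed to 65.1 to 104 CPM and peritubular myoid markers to 603 to 1637 CPM, and red blood cell markers (5 of 7 matched) to 2050 to 12197 CPM and striated muscle markers to 163 to 664 CPM. In the 100 mg/kg/d group, replicates 05 and 18 also differed from the rest outside the mitochondrial genome. The 107 cytosolic ribosomal protein genes held 7.67% and 6.97% of all counts in them, and 4.33% to 5.53% elsewhere. Germ cell markers summed to 538 and 652 CPM in these 2 libraries against 247 to 430 CPM in the others, and endothelial markers to 215 and 261 CPM against 321 to 522 CPM. The correlation of log2 CPM with log2 gene length over tested genes was 0.293 and 0.318 there, against 0.318 to 0.367 in the others. The mitochondrial share and the protein gene median at 100 mg/kg/d are therefore also given without these libraries, and the nuclear gene results only in part.

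Mitochondrial genes took a large share of all gene counts in each library, and their order per length hardly differed between libraries. Levels are compared between genes as counts per base, scaled to a sum of 1000000 per library. In corn oil libraries the order began with Mt-co1 at 25308 ± 630 (SD, n = 3), followed by Mt-co3 at 23383 ± 340 and Mt-atp6 at 21936 ± 1008. Mt-co2 stood at 16605 ± 607, and then came Mt-cyb at 11013 ± 879 and Mt-atp8 at 10946 ± 540, whose ranges overlapped. Mt-nd2 at 8938 ± 203 and Mt-nd1 at 8770 ± 977 also overlapped, and so did Mt-nd3 at 3876 ± 369 and Mt-nd5 at 3464 ± 250. Mt-nd4 at 6964 ± 236 and Mt-nd4l at 5874 ± 551 lay between these pairs. Subunits of complex IV and Mt-atp6 thus filled the first 4 places, and complex I subunits places 7 to 13. Mt-nd6, the only protein gene on the minus strand, was the lowest at 2342 ± 230.

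The long unnamed genes stood below the protein genes in this order, at 1301 ± 429 for ENSRNOG00000043866 and 1076 ± 121 for ENSRNOG00000030478 in corn oil libraries. Across all 17 libraries Mt-co2 stayed in place 4, Mt-nd4 in place 9 and Mt-nd4l in place 10, and each of the other protein genes moved by at most 2 places. Of raw counts, Mt-co1 took 26.5% of all mitochondrial counts or more in every library. Complex IV genes took 48.9% to 53.0% of the protein gene counts, complex I genes 25.8% to 28.6%, complex V genes 11.7% to 13.4% and Mt-cyb 7.76% to 10.5%. The highest complex IV and complex V shares and the lowest complex I and Mt-cyb shares were those of replicate 05.

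The share of gene counts that fell on mitochondrial genes was lower in most DPeP libraries than in corn oil libraries, apart from replicates 05 and 18. It was 5.58%, 6.16% and 6.12% with corn oil, 5.26%, 4.35% and 5.02% at 1 mg/kg/d, 4.96%, 5.52% and 5.16% at 11 mg/kg/d, 9.05%, 7.76% and 5.26% at 100 mg/kg/d (replicates 05, 18 and 19), and 5.50%, 5.44%, 5.15%, 5.14% and 5.78% at 300 mg/kg/d. Of the 12 DPeP libraries other than 05 and 18, 11 were below the lowest corn oil library, and replicate 20 at 300 mg/kg/d was not. A share is relative to the other RNA in the tube: fewer cells rich in mitochondria and less mitochondrial RNA per cell cannot be told apart in such tissue RNA.

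**Figure D1:**
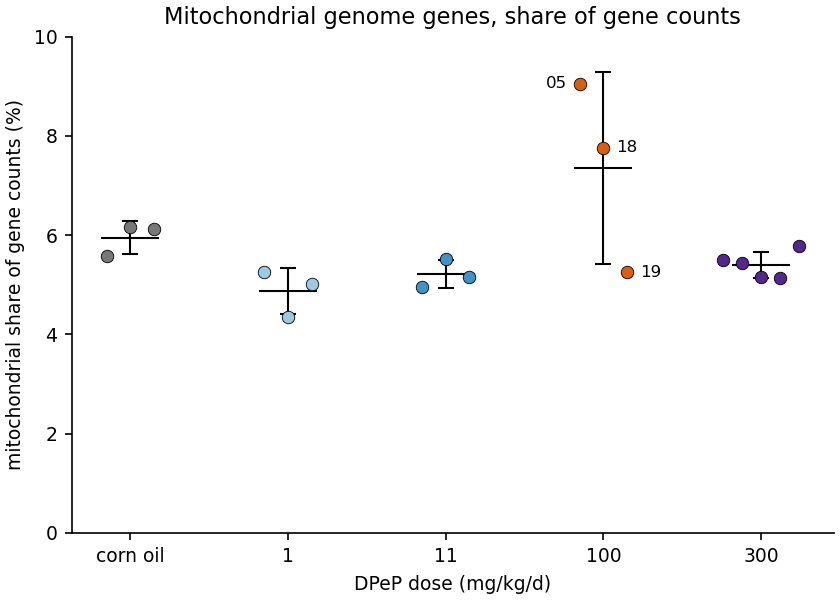
Share of gene counts on the 37 mitochondrial genes (%), by DPeP dose (mg/kg/d). Points are libraries, horizontal lines and bars the mean and SD (n = 3, and n = 5 at 300 mg/kg/d), and numbers mark the libraries at 100 mg/kg/d; replicates 05 (9.05%) and 18 (7.76%) lie above the other 15 libraries, which span 4.35% to 6.16%.

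Group means were 4.88 ± 0.469% at 1 mg/kg/d, 5.21 ± 0.285% at 11 mg/kg/d, 7.36 ± 1.93% at 100 mg/kg/d and 5.40 ± 0.268% at 300 mg/kg/d, against 5.95 ± 0.326% with corn oil (SD). The sample titles carry a code (S446, S447 or S448) that the sources used here leave unexplained. Within code S447 the share at 300 mg/kg/d was 0.865 times that of the 1 corn oil library (2 libraries against 1), and within code S448 it was 0.981 times (3 against 1). At 1 mg/kg/d it was 0.815, 0.711 and 0.943 times the corn oil value within codes S446, S447 and S448, with 1 library on each side. At 11 mg/kg/d the ratios were 0.827 within code S447 and 0.990 within code S448. The low side was thus shared by every code, and within code S448 the libraries at 300 and 11 mg/kg/d came close to corn oil. The libraries also hold 92 spike-in RNAs, and mitochondrial counts per spike-in count gave another order. They were 5.22, 6.03 and 4.39 with corn oil, 4.197, 4.83 and 6.52 at 1 mg/kg/d, 3.92, 5.65 and 5.38 at 11 mg/kg/d, 8.29, 6.75 and 4.81 at 100 mg/kg/d, and 5.34, 5.26, 5.18, 5.83 and 9.45 at 300 mg/kg/d. The ratio of the group mean to corn oil was 0.995 at 1, 0.956 at 11, 1.27 at 100 and 1.19 at 300 mg/kg/d, and every dose group overlapped corn oil. The mean at 300 mg/kg/d included replicate 20 at 9.45, with the other libraries of that group at 5.18 to 5.83.

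At 300 mg/kg/d, no protein gene passed the test against corn oil, and the differences were small. Mt-co1, the catalytic core of cytochrome c oxidase, had 15278, 14845, 14318, 14449 and 15909 CPM at 300 mg/kg/d, against 16191, 16353 and 17811 CPM with corn oil. The groups did not overlap, yet its log2 fold change of -0.17 ± 0.16 (SE) had an adjusted p of 0.722 in edgeR's quasi-likelihood test. All 13 protein genes had a fold change below 0, from -0.24 for Mt-atp6 to -0.09 for Mt-nd2, with a median of -0.17 against 0.01 over all 18005 genes tested; with library sizes from the spike-in counts this median was 0.26 against 0.42 over all genes. Their adjusted p values ran from 0.496 to 0.864. None of the 13 was called at an adjusted p under 0.05, where 2.4% of all genes were called, none had an unadjusted p under 0.05, and DESeq2 called none of them (4.14% of all genes).

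A single mitochondrial gene was called at 300 mg/kg/d, the short gene ENSRNOG00000029954 of 66 bases on the minus strand at MT:5256-5321, next to Mt-co1. It had 5.63, 5.24, 7.08, 3.75 and 8.16 CPM at 300 mg/kg/d, against 11.2, 11.4 and 14.2 CPM with corn oil. The groups did not overlap. It fell by 1.04 ± 0.26 on the log2 scale (2.06-fold lower, adjusted p = 0.0389 in edgeR's quasi-likelihood test). The call was 1 of 30 mitochondrial genes tested, where 1.41% of all genes were called lower. Within code S447 its log2 ratio was -1.21 and within code S448 -0.94, with 1 corn oil library in each.

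This call is close to the threshold, and the size of the difference was steadier than its p. Over 17 other ways of fitting, its log2 fold change ran from -1.19 to -0.58 and its adjusted p from 0.00586 to 0.214, and 9 of them kept the call. It was lost without corn oil replicate 01 (adjusted p = 0.0829), 08 (0.0881) or 15 (0.214), at 300 mg/kg/d without 06 (0.0723), 07 (0.0896) or 14 (0.0972), with the sample code in the fit (0.059) and with spike-in library sizes (0.183), all from edgeR's quasi-likelihood test. At the other doses the gene had 9.16, 11.4 and 6.68 CPM at 1 mg/kg/d, 7.09, 2.98 and 4.14 CPM at 11 mg/kg/d and 10.2, 10.4 and 5.64 CPM at 100 mg/kg/d. In 13 of the 14 DPeP libraries it was thus below the lowest corn oil library. Its log2 fold change was -1.38 ± 0.31 at 11 mg/kg/d (unadjusted p = 0.00024, adjusted p = 0.239 in edgeR's quasi-likelihood test), -0.49 ± 0.30 at 100 mg/kg/d and -0.44 ± 0.30 at 1 mg/kg/d.

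Other short genes on the minus strand lay on the same side at 300 mg/kg/d without passing the threshold. ENSRNOG00000032609, the short gene with the most counts, lies at MT:5081-5152. It had 21.9, 20.6, 25.2, 18.6 and 27.3 CPM at 300 mg/kg/d, against 40.1, 37.5 and 51.5 CPM with corn oil, with a log2 fold change of -0.92 ± 0.40 and an adjusted p of 0.304 in edgeR's quasi-likelihood test. ENSRNOG00000029145 at MT:15348-15415 had 14.4, 14.9, 12.6, 13.6 and 14.2 CPM at 300 mg/kg/d, against 20.5, 22.9 and 26.2 CPM with corn oil. In both genes the groups did not overlap. ENSRNOG00000031333 at MT:5185-5252 had 9.86, 6.25, 9.07, 6.34 and 9.85 CPM at 300 mg/kg/d, against 13.4, 17.6 and 20.6 CPM with corn oil, again without overlap. The log2 fold changes were -0.73 ± 0.20 for ENSRNOG00000029145 (adjusted p = 0.0569) and -1.06 ± 0.39 for ENSRNOG00000031333 (adjusted p = 0.201), and ENSRNOG00000032997 at MT:14062-14130 had -0.99 ± 0.26 (adjusted p = 0.0529), all in edgeR's quasi-likelihood test.

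Seen by strand, a split chosen after these values were known, all 7 tested short genes of the minus strand had log2 fold changes below 0 at 300 mg/kg/d, with a median of -0.99 and a range from -1.06 to -0.37. Of the 8 tested on the plus strand, 5 were below 0, with a median of -0.25 and a range from -2.23, for the sparse ENSRNOG00000029070, to 0.14. With spike-in library sizes, 6 of 7 and 2 of 8 were below 0, with medians of -0.58 and 0.19. The 8 minus-strand short genes summed to 53.5 to 67.6 CPM at 300 mg/kg/d against 97.1 to 128 CPM with corn oil, which did not overlap. The 14 plus-strand short genes summed to 26.0 to 31.5 CPM against 27.8 to 36.7 CPM, which did. Among them ENSRNOG00000032274 at MT:3835-3903, the most counted of the plus strand, had 8.96, 10.1, 8.54, 9.34 and 10.1 CPM at 300 mg/kg/d, against 6.14, 10.9 and 8.55 CPM with corn oil. The split was not the same at the other doses, which share the same corn oil libraries. At 1 mg/kg/d, 7 of 7 minus-strand and 8 of 8 plus-strand genes were below 0. Their medians were -0.45 and -0.79, so the plus strand was the lower one there. At 11 mg/kg/d, 7 of 7 and 6 of 8 were below 0, with medians of -0.36 and -0.27. At 100 mg/kg/d, with all its libraries included, 3 of 7 and 1 of 8 were below 0, with medians of 0.52 and 0.42. Minus-strand and plus-strand genes were not tested against each other at any dose.

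**Figure D2:**
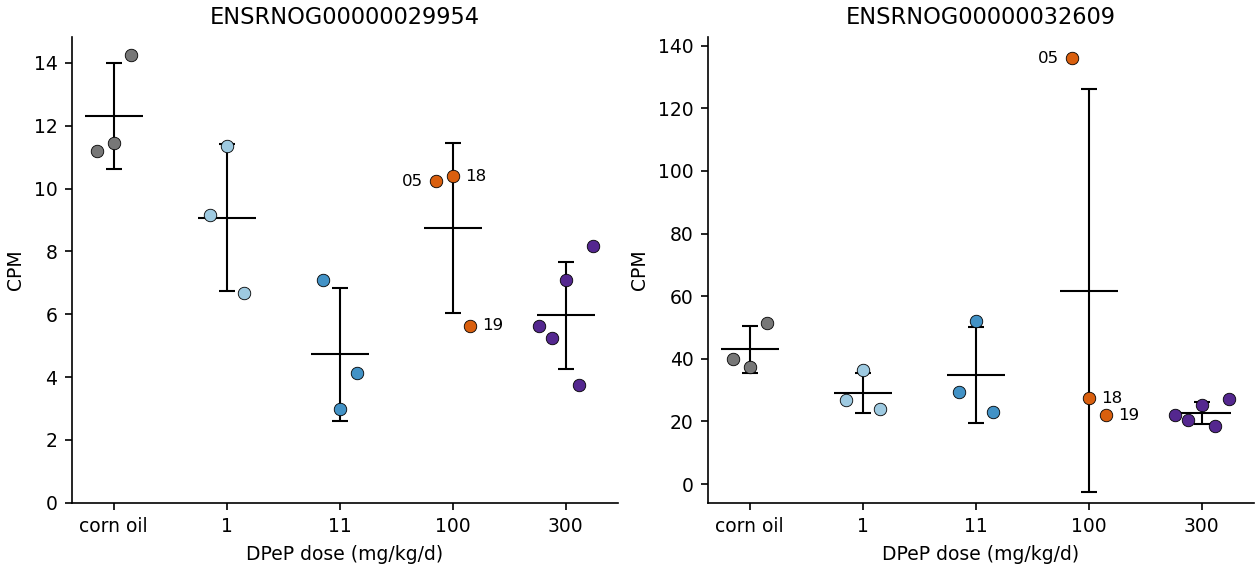
CPM by DPeP dose (mg/kg/d) of 2 short minus-strand genes, ENSRNOG00000029954 (left) and ENSRNOG00000032609 (right). Points are libraries, horizontal lines and bars the mean and SD (n = 3, and n = 5 at 300 mg/kg/d), and numbers mark libraries at 100 mg/kg/d; at 300 mg/kg/d both genes lie below all 3 corn oil libraries, and replicate 05 reaches 136 CPM for ENSRNOG00000032609 but 10.2 CPM for ENSRNOG00000029954.

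The long unnamed genes also had log2 fold changes below 0 without a call, and with spike-in library sizes they were at -0.02 for ENSRNOG00000030478 and -0.14 for ENSRNOG00000043866. ENSRNOG00000030478 had 346, 327, 348, 297 and 322 CPM at 300 mg/kg/d, against 372, 476 and 481 CPM with corn oil, a log2 fold change of -0.43 ± 0.21 (adjusted p = 0.373 in edgeR's quasi-likelihood test). ENSRNOG00000043866 had 647, 639, 619, 527 and 632 CPM at 300 mg/kg/d, against 713, 1208 and 708 CPM with corn oil, and -0.52 ± 0.28 (adjusted p = 0.461). In neither gene did the groups overlap. In all, 8 of the 30 genes had an unadjusted p under 0.05, all lower, where 5.63% of all genes did. In 11 of the 30 (2 protein, 2 long and 7 short genes) every library at 300 mg/kg/d was below every corn oil library, where 6.48% of all genes were; these genes lie on 1 molecule and are no independent replicates.

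How many genes were called at 300 mg/kg/d depended on replicates 05 and 18, although neither belongs to this comparison. Without both, 7 of the 30 genes were called lower at 300 mg/kg/d (4.61% of all genes in either direction): ENSRNOG00000030478, 5 minus-strand short genes (ENSRNOG00000029954, ENSRNOG00000032609, ENSRNOG00000031333, ENSRNOG00000032997 and ENSRNOG00000029145) and the sparse plus-strand gene ENSRNOG00000029070, which had 7.65 counts per library on average. A fit of the 300 mg/kg/d and corn oil libraries alone also called 7 (4.82% of all genes), among them both long genes and the same 5 minus-strand short genes. DESeq2 called 3 (4.14% of all genes), and no fit named here called a protein gene in this comparison. Marker sums moved with dose in the same libraries: Leydig markers summed to 1572 to 2399 CPM at 300 mg/kg/d against 5625 to 6994 CPM with corn oil (7 of 8 called lower), and Sertoli markers to 2816 to 4979 CPM against 2279 to 3035 CPM (5 of 8 called higher, 1 lower). In the fit of all 17 libraries, 2.4% of all genes were called at 300 mg/kg/d in either direction. The part of these markers in the mitochondrial values was not tested.

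At the low doses the mitochondrial protein genes lay below corn oil without a call. At 1 mg/kg/d, 0 of the 30 genes were called by edgeR's quasi-likelihood test (0% of all genes) and 0 by DESeq2 (0%), and 9 had an unadjusted p under 0.05, all lower, where 2.17% of all genes did. Every protein gene was below 0 on the log2 scale, from -0.48 to -0.26, with a median of -0.33 against 0.01 over all genes. With spike-in library sizes this median was -0.02, against 0.31 over all genes, and Mt-nd1 (0.02), Mt-co1 (0.03), Mt-co3 (0.01) and Mt-cyb (0.03) were above 0. In 21 of 30 genes (12 protein, 2 long and 7 short) all 3 libraries were below all 3 corn oil libraries, where 7.65% of all genes were.

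The protein gene with the lowest p at 1 mg/kg/d was Mt-nd6. It had 357, 401 and 363 CPM at 1 mg/kg/d, against 470.1, 580 and 515 CPM with corn oil. Its log2 fold change was -0.48 ± 0.15 with an unadjusted p of 0.0040 and an adjusted p of 0.864 in edgeR's quasi-likelihood test. Replicate 09 had the lowest level of 10 of the 13 protein genes at this dose, and without it the protein gene median was -0.24.

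At 11 mg/kg/d, 0 of the 30 genes were called by edgeR's quasi-likelihood test (0% of all genes) and 1 by DESeq2 (ENSRNOG00000029954, lower, where it called 0.144% of all genes), and 2 had an unadjusted p under 0.05, both lower, where 2% of all genes did. The protein gene median was -0.21, with a range from -0.28 to -0.12, against 0.01 over all genes; with spike-in library sizes it was -0.06 against 0.15, and Mt-nd6 (0.03) was above 0. In 10 of 30 genes (9 protein genes and 1 short gene) the groups did not overlap and DPeP was lower, where 6.94% of all genes were. Every comparison with corn oil uses the same 3 corn oil libraries, so these low values are not independent of each other. Within code S448, Mt-nd1 was at a log2 ratio of 0.02 at 11 mg/kg/d and 0.08 at 300 mg/kg/d to its corn oil library, against -0.19 and -0.07 within code S447.

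**Figure D3:**
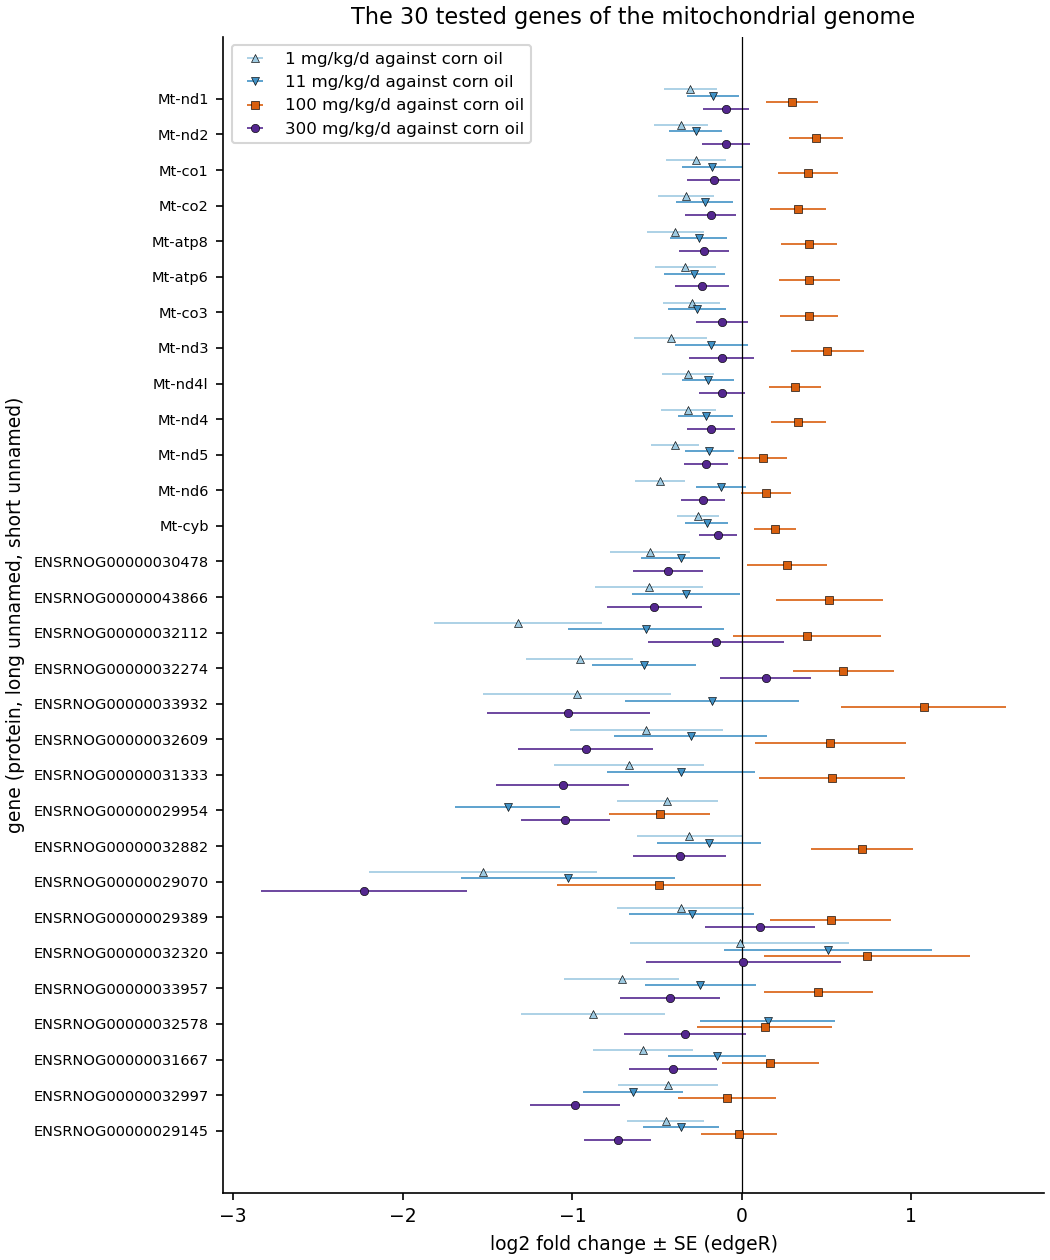
Log2 fold change against corn oil with its SE (edgeR) for each of the 30 tested mitochondrial genes, at 1, 11, 100 and 300 mg/kg/d from top to bottom within a gene, with protein genes first, then long and short unnamed genes. Protein genes lie below 0 at 1, 11 and 300 mg/kg/d, although with spike-in library sizes 4 of them at 1, 1 at 11 and 13 at 300 mg/kg/d were above 0. The median over all genes was then also above 0 at each of these doses. Protein genes lie above 0 at 100 mg/kg/d, where their median without replicates 05 and 18 was -0.26.

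At 100 mg/kg/d the 3 libraries differed widely from each other. In CPM, replicates 05 and 18 had the highest levels of all 17 libraries for each of the 13 protein genes, while replicate 19 lay below the corn oil mean for each of them. The share of all genes that were highest in replicates 05 and 18 is not given here, so this count cannot be set against it. Per spike-in count, mitochondrial counts in replicates 05 (8.29) and 18 (6.75) were below replicate 20 at 300 mg/kg/d (9.45), and replicate 10 at 1 mg/kg/d (6.52) came next. For Mt-co1 the CPM values were 29386 CPM for replicate 05, 22453 CPM for replicate 18 and 14205 CPM for replicate 19, against 16191, 16353 and 17811 CPM with corn oil. Over the protein genes, replicate 05 stood at 1.18 to 2.10 times the corn oil mean (median 1.57), replicate 18 at 1.16 to 1.59 times (median 1.37) and replicate 19 at 0.784 to 0.922 times (median 0.846). The ratio of 2.10 in replicate 05 was that of Mt-nd3, with 1218 CPM there, 793 CPM in replicate 18 and 455 CPM in replicate 19, against 504, 584 and 653 CPM with corn oil.

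The edgeR test across libraries called 0 of the 30 genes at 100 mg/kg/d against corn oil, where 1.52% of all genes were called in either direction. DESeq2 also called 0 (5.02% of all genes). At an unadjusted p under 0.05 there were 8, all higher (6 protein and 2 short genes), where 10.5% of all genes were. In 1 gene (ENSRNOG00000029954) all 3 libraries were below all corn oil libraries, where 7.89% of all genes were. The protein gene median was 0.33, from 0.12 for Mt-nd5 to 0.50 for Mt-nd3, against 0.05 over all genes. Without replicates 05 and 18 it was -0.26, with replicate 19 alone, assumed to vary like the other groups. Without replicate 19, 16 genes were called higher by edgeR's quasi-likelihood test, 11 of them protein genes, 2 long and 3 short, where 23.2% of all genes were called in either direction. That fit leaves only replicates 05 and 18 in the group. These libraries were singled out with results of these data known, so the 16 calls are no separate support for a rise.

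**Figure D4:**
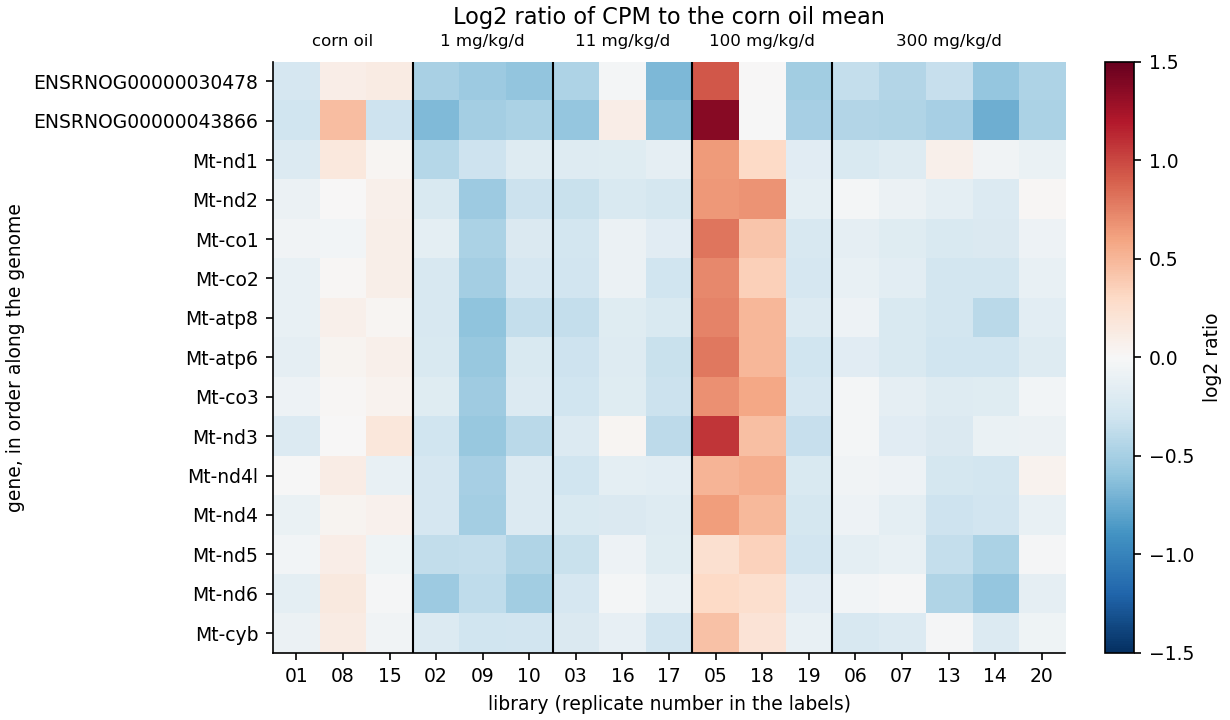
Log2 ratio of CPM to the corn oil mean for the 13 protein and 2 long unnamed genes (rows, in order along the genome) in each library (columns, grouped by dose from corn oil to 300 mg/kg/d). Red is above and blue below the corn oil mean; replicate 05 is red in every row and replicate 18 in the protein rows, with the long genes near 0.

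Replicates 05 and 18 differed from each other in which mitochondrial genes were high. The long unnamed genes were highest in replicate 05 and not raised in replicate 18: in replicate 05 ENSRNOG00000043866 reached 2263 CPM, while replicate 18 had 873 CPM and replicate 19 had 622 CPM, against 713, 1208 and 708 CPM with corn oil. ENSRNOG00000030478 had 844, 446.5 and 309 CPM in these replicates, against 372, 476 and 481 CPM with corn oil. Replicate 18 was thus at 0.997 and 1.01 times the corn oil mean for the long genes, while replicate 05 was at 2.58 and 1.90 times. Counts in the 2 long genes per 100 counts in protein genes came to 3.29 in replicate 05, 1.66 in replicate 18 and 1.86 in replicate 19, against 1.97, 2.81 and 1.95 with corn oil. Corn oil replicate 08 (2.81) and replicate 16 at 11 mg/kg/d (2.58) were the next highest, with mitochondrial shares of 6.16% and 5.52%.

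**Figure D5:**
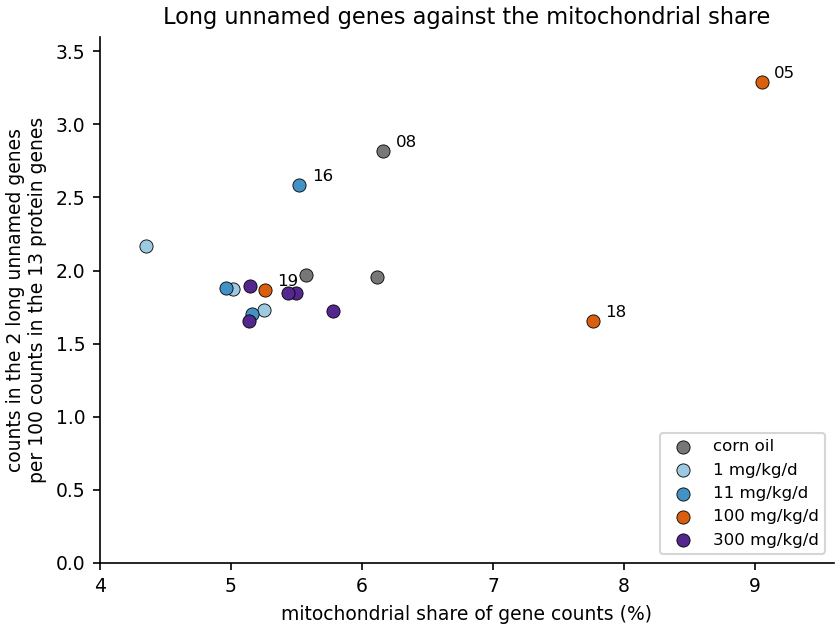
Counts in the 2 long unnamed genes per 100 counts in the 13 protein genes, against the mitochondrial share of gene counts (%). Each point is a library coloured by dose, and numbers name some of them; replicate 05 is high on both axes (9.05% and 3.29), replicate 18 has a high share with a low ratio (7.76% and 1.66), and replicates 08 (6.16% and 2.81) and 16 (5.52% and 2.58) have the next highest ratios.

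Summed by the strand that the files give, the short genes differed in replicate 18, while single genes there did not split by strand. Plus-strand short genes summed to 57.9 CPM in replicate 05, 46.4 CPM in replicate 18 and 24.8 CPM in replicate 19, against 27.8, 34.5 and 36.7 CPM with corn oil, so both replicates 05 and 18 were above all corn oil libraries. Minus-strand short genes summed to 264 CPM in replicate 05, 92.8 CPM in replicate 18 and 59.9 CPM in replicate 19, against 97.1, 104 and 128 CPM with corn oil. ENSRNOG00000032609 alone had 136, 27.4 and 21.9 CPM in these replicates, against 40.1, 37.5 and 51.5 CPM with corn oil, so that replicate 18 lay below all corn oil libraries. Over the 15 short genes tested, the median ratio to the corn oil mean was 1.959 in replicate 05 and 1.335 in replicate 18. Of these genes, 11 were higher in replicate 05 and 4 in replicate 18 than in any of the other 15 libraries. The share of all genes for which this held is not given here, so these counts cannot be set against it. The set in replicate 18 held genes of both strands. They were ENSRNOG00000032274 and ENSRNOG00000031667 (plus) and ENSRNOG00000033932 and ENSRNOG00000032882 (minus). ENSRNOG00000029954 was in neither set, with 10.2 and 10.4 CPM.

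Nuclear genes of the respiratory chain were also high in these libraries. The nuclear subunit genes of complexes I to V held 1.06% of gene counts in replicate 05 and 0.986% in replicate 18, where the rest ranged over 0.770% to 0.964%. Genes of the mitochondrial ribosome summed to 3945 and 3495 CPM, against 2562 to 3180 CPM in the others. The mitochondrial genome, at 9.05% and 7.76% against at most 6.16%, stood further above the other libraries than the nuclear subunits did. The share of cytosolic ribosomal protein genes and the germ cell markers were high and the endothelial markers low in the same libraries, and their part in these values was not tested.

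Between the highest doses, all 30 mitochondrial genes had log2 fold changes below 0 at 300 against 100 mg/kg/d and none was called, and with spike-in library sizes 5 protein genes (Mt-nd1, Mt-nd4l, Mt-nd5, Mt-nd6 and Mt-cyb) were above 0, at 0.01 to 0.10. For protein genes the median log2 fold change was -0.51, with a range from -0.63 to -0.33 and adjusted p values from 0.0837 to 0.131 in edgeR's quasi-likelihood test. At an unadjusted p under 0.05 there were 24 genes, all lower, where 14.3% of all genes were, and 0.00555% of all genes were called; DESeq2 called 16 (7.28% of all genes). The median was 0.08 without replicates 05 and 18 and -0.09 with spike-in library sizes, against 0.39 over all genes. Without replicate 19 at 100 mg/kg/d, 27 were called lower, where 32.1% of all genes were called in either direction. Only the singled-out replicates 05 and 18 then remained at 100 mg/kg/d, so the 27 calls are no separate support. A slope over log2(dose + 1) through all libraries called 0 of the 30 genes, where 5.72% of all genes were called, by edgeR's quasi-likelihood test; 3 had an unadjusted p under 0.05 (19.1% of all genes) and DESeq2 called 0 (8.27%). The protein gene median of this slope was 0.02 per unit of log2(dose + 1), against 0.00 over all genes. Without replicates 05 and 18 it called 5 genes lower (9.07% of all genes in either direction), all of them short and on the minus strand. Both libraries were singled out with results of these data known. The 5 calls are thus no separate support for a fall with dose or for the split by strand.

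Sparse genes limit what can be said of the short class. Of the 22 short genes, 7 did not pass the filter on low counts, 6 of them on the plus strand. Their highest count in any library was 15 and their highest mean 3.77 counts. The 22 short genes together made up 0.153% to 0.328% of mitochondrial counts.

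Ratios between overlapping neighbours varied little. Per base, Mt-nd4l stood at 0.750 to 0.941 times Mt-nd4 over the 17 libraries, and at 0.773, 0.874 and 0.868 times in replicates 05, 18 and 19. Mt-atp8 stood at 0.458 to 0.537 times Mt-atp6. Mt-nd6, which overlaps Mt-nd5 from the opposite strand, had 17.0 to 20.8 counts per 100 counts of Mt-nd5. At 300 mg/kg/d this ratio was 20.6, 20.4, 17.9, 17.8 and 17.8, against 17.8, 20.0 and 19.8 with corn oil, so the groups overlapped.

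The nuclear partners of the mitochondrial genes were examined in lists, of which 311 of 333 entries matched a gene and 306 were tested. These lists were drawn up with earlier results of these data known. At 300 mg/kg/d most subunit genes had log2 fold changes slightly below 0, without single calls: 33 of 33 nuclear complex I genes were below 0 (median -0.20), 8 of 9 of complex III (median -0.21), 12 of 12 of complex IV (median -0.11) and 14 of 15 of complex V (median -0.14), and none of these genes was called by edgeR's quasi-likelihood test. With spike-in library sizes these medians were 0.20, 0.22, 0.30 and 0.27, against 0.42 over all genes. The mitochondrially encoded subunits of the same complexes had a median of -0.17, and 8648 of all 18005 genes tested were below 0. Examples from the 2 genes of highest mean CPM in each list were Ndufs1, which holds iron-sulfur clusters of complex I (-0.23 ± 0.12), and Uqcrc2, a core protein of complex III (-0.23 ± 0.16). Others were Cox4i1 of complex IV (-0.06 ± 0.09) and Atp5f1b, the catalytic subunit of ATP synthase (-0.30 ± 0.09). At 11 mg/kg/d, 33 of 33, 9 of 9, 12 of 12 and 15 of 15 genes of complexes I, III, IV and V were below 0. Their medians were -0.15, -0.19, -0.18 and -0.18. At 1 mg/kg/d it was 31 of 33, 9 of 9, 10 of 12 and 15 of 15, with medians of -0.12, -0.15, -0.10 and -0.15. None was called there, and all doses share the same corn oil libraries.

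In complex II, which has no subunit in the mitochondrial genome, Sdhb, its iron-sulfur subunit, fell at 300 mg/kg/d. It had 146, 138, 145, 137 and 128 CPM at 300 mg/kg/d, against 175, 187 and 198 CPM with corn oil, and fell by 0.43 ± 0.10 on the log2 scale (adjusted p = 0.0186 in edgeR's quasi-likelihood test). The groups did not overlap. The call was lost in 5 of 17 other fits, when corn oil replicate 08, corn oil replicate 15 or replicate 20 was left out, with the sample code in the fit and with spike-in library sizes, where the change was -0.02. The other 3 subunit genes of complex II were below 0 without a call, where 1.41% of all genes were called lower. The list's median was -0.21, or 0.19 with spike-in library sizes. At 11 and 1 mg/kg/d all 4 genes of the list were also below 0 without a call, with medians of -0.14 and -0.08.

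Of 72 mitochondrial ribosomal protein genes, 67 were below 0 at 300 mg/kg/d (median -0.13, and 0.28 with spike-in library sizes). At 11 and 1 mg/kg/d, 62 and 61 of the 72 were below 0, with medians of -0.11 and -0.11 and no call. At 300 mg/kg/d 1 of the 72 was called, Mrpl37, where 1.41% of all genes were called lower. It averaged 49.4 ± 2.66 CPM at 300 mg/kg/d and 62.0 ± 3.42 CPM with corn oil (SD, n = 5 and n = 3) and fell by 0.33 ± 0.09 on the log2 scale (adjusted p = 0.0476 in edgeR's quasi-likelihood test). At 100 mg/kg/d it averaged 44.6 ± 4.56 CPM (n = 3) and fell by 0.47 ± 0.10 (adjusted p = 0.0153 in the same test). There 55 of the 72 genes were above 0 (median 0.17), and 1.52% of all genes were called in either direction. The call at 300 mg/kg/d was lost in 10 of 17 other fits, among them those without any 1 of the corn oil replicates or of replicates 06, 07 and 20, and the log2 fold change was 0.08 with spike-in library sizes. At 100 mg/kg/d the call was lost in 6 of 15 other fits, among them those without both replicates 05 and 18, without replicate 18 alone and without corn oil replicate 01 or 15. Genes that copy, transcribe and process mitochondrial RNA gave no call at either dose: Tfam, which packages and transcribes mitochondrial DNA, was at -0.10 ± 0.12 and Lrpprc, which stabilizes mitochondrial messenger RNA, at -0.11 ± 0.12 at 300 mg/kg/d. The medians at 300 mg/kg/d were -0.04 over 19 genes of mitochondrial DNA copying and transcription, -0.09 over 29 of RNA processing, -0.05 over 18 mitochondrial aminoacyl-tRNA synthetases, 0.06 over 13 regulators of mitochondrial biogenesis and -0.06 over 21 stress response genes, none of them called by edgeR's quasi-likelihood test; with spike-in library sizes these medians ran from 0.32 to 0.47.

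Nuclear genes for the mitochondrial steps of steroid synthesis were lower at both high doses. Of 6 such genes, 5 were called lower at 300 and 5 at 100 mg/kg/d, with replicates 05 and 18 included. Of all genes, 2.4% were called at 300 and 1.52% at 100 mg/kg/d in either direction. Star, which brings cholesterol into mitochondria, averaged 148 ± 41.1 CPM at 300 mg/kg/d and 632 ± 73.7 CPM with corn oil (SD, n = 5 and n = 3), and fell by 2.09 ± 0.18 on the log2 scale (adjusted p = 7.33e-07 in edgeR's quasi-likelihood test). Cyp11a1, which cleaves the cholesterol side chain, fell by 1.71 ± 0.15, Cyp11b1, a steroid hydroxylase, by 4.35 ± 0.38 and Fdx1, which carries electrons to these enzymes, by 1.75 ± 0.17 (adjusted p = 7.44e-07, 7.44e-07 and 3.00e-06 in the same test). These 4 calls held in all 17 other fits. At 100 mg/kg/d, with replicates 05 and 18 included, Star averaged 228 ± 22.1 CPM (n = 3) and fell by 1.47 ± 0.21 (adjusted p = 0.000851 in the same test). Star and Cyp11a1 are among the Leydig cell markers used here. For all the named genes, fewer cells that express them and less RNA per cell cannot be told apart. With spike-in library sizes, 4 of 6 were called lower at each dose, and the share of all genes called in that fit is not given here. At 100 mg/kg/d the nuclear complex I, III, IV and V lists had medians of 0.16, 0.28, 0.18 and 0.25, with no call, and without replicates 05 and 18 those of complex I and complex V were -0.36 and -0.37.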

How the data were processed

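Gene counts per library and the gene coordinates were used as deposited; they are whole-number read counts per gene that the authors made, with no normalization, and 92 spike-in rows were kept apart. Per the submitters' processing notes, Trimmomatic 0.36, STAR 2.5.2b, featureCounts of Subread 1.5.2 and the build mRatBN7.2 were used, and DESeq2 and limma are named without a role. Groups follow the labels. Genes passing filterByExpr (18005, of them 30 of the 37 mitochondrial genes) entered 1 fit of all 17 libraries in edgeR 4.0.16 (R 4.3.3), with TMM scaling, the quasi-likelihood test and Benjamini-Hochberg adjustment over all genes tested; a call is an adjusted p under 0.05. SE values are the fold change divided by the root of F. CPM use the TMM-scaled library sizes. The fits were tested on simulated data with 200 changed genes. Alternatives were other scalings, spike-in library sizes, no filter on low counts, the sample code as a term, the compared groups alone, DESeq2 1.42.0 and libraries left out. Figures were drawn with matplotlib 3.10.9 under Python 3.11.15.

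The members and gene lists were chosen with earlier results of these data known. All protein and long genes are named, with the 4 short genes of highest mean CPM and any that was called; of each nuclear list, up to 4 called genes with the smallest adjusted p are eligible, or, for a list with no call, the 2 of highest mean CPM. ENSRNOG00000032997, ENSRNOG00000029070, ENSRNOG00000032882, ENSRNOG00000031667 and ENSRNOG00000033932 were named after their values were seen. No p-value is given for sums or shares over the mitochondrial genes.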

Additional observations from a re-analysis of the deposited data

Results flagged for a closer look

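Among 38 measures tested for a library far from the others at 300 mg/kg/d, the group of 5 libraries, 3 gave one, where chance gives about 1 in 20. Mitochondrial counts per spike-in count were 9.447 in replicate 20, against 5.176 to 5.826 in the other 4 libraries. ENSRNOG00000043866, a long unnamed gene, had 526.5 CPM in replicate 14, against 618.6 to 647.0 CPM in the others. ENSRNOG00000032882, a short minus-strand gene, had 8.537 CPM in replicate 14, against 5.507 to 5.674 CPM in the others. Groups of 3 libraries cannot be tested in this way, so replicates 05 and 18 at 100 mg/kg/d are described by their values alone.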

How the results depend on the processing

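The number of the 30 tested genes called at 300 mg/kg/d against corn oil (1, lower) was 0 with spike-in library sizes and 0 when the fit held the sample code. It was 3 without the filter on low counts and 3 with DESeq2 (4.14% of all genes). It was 7 when only the compared groups were fitted (4.82%), 7 without replicates 05 and 18 (4.61%) and 0 to 2 when single libraries were left out. Against corn oil it was 0 to 16 at 100 mg/kg/d when single libraries were left out, with 16 without replicate 19 (23.2%). At 11 mg/kg/d it was 1 without the filter and 1 with DESeq2 (0.144%). For 300 against 100 mg/kg/d it was 3 with spike-in library sizes, 11 without the filter and 16 with DESeq2 (7.28%). It was 0 to 27 there when single libraries were left out, with 27 without replicate 19 (32.1%). For the slope it was 1 with spike-in library sizes, 5 without replicates 05 and 18 (9.07%) and 0 to 3 when single libraries were left out. For the other fits the share of all genes called is not given here, so their counts cannot be set against it. The protein gene median with spike-in library sizes was 0.26 at 300, -0.0616 at 11 and -0.0199 at 1 mg/kg/d, and -0.0864 for 300 against 100 mg/kg/d, where total counts without scaling gave -0.44. Without replicates 05 and 18 it was -0.26 at 100 mg/kg/d and 0.0794 for 300 against 100 mg/kg/d. With single libraries left out, this median ran from -0.21 to -0.15 at 300, 0.11 to 0.56 at 100, -0.27 to -0.19 at 11 and -0.39 to -0.24 at 1 mg/kg/d, from -0.74 to -0.29 for 300 against 100 mg/kg/d and from 0.0024 to 0.0231 for the slope. The mean mitochondrial share of length-scaled counts was 13.2%, 14.1%, 18.0% and 14.4% at 1, 11, 100 and 300 mg/kg/d, against 15.7% with corn oil. Without replicates 05 and 18 the count share at 100 mg/kg/d was 5.26%. With single libraries left out, the count share was 4.69% to 5.14% at 1, 5.06% to 5.34% at 11, 6.51% to 8.41% at 100 and 5.31% to 5.47% at 300 mg/kg/d, against 5.85% to 6.14% with corn oil. The cause of these differences was not tested. No paired analysis was possible because no replicate number is shared between libraries; the sample code, which groups do share, entered as a term in the fit named above.

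Limits: groups of 3 libraries, and 1 at 100 mg/kg/d without replicates 05 and 18, which is then assumed to vary like the others, leave wide errors. Spike-in counts of 106089 to 233809 per library set the spike-in scaling, and the medians it gives are relative to all-gene medians of 0.42 at 300 mg/kg/d and 0.06 at 100 mg/kg/d. At 300 mg/kg/d, replicate 20 had 106089 spike-in counts, against 150768 to 179929 in the rest of its group. The fit with spike-in library sizes was not repeated without replicate 20. Short genes had few counts, 7 of 22 too few to test.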
